A study of Mus musculus with 38 samples.

Results

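The vacuolar proton pump (V-ATPase) was followed through 10 of its subunit genes in microdissected mouse cortical collecting ducts (CCD). They form 5 pairs of alternative isoforms of the same subunit. Atp6v1b1, Atp6v0a4, Atp6v1c2, Atp6v1g3 and Atp6v0d2 are the isoforms enriched in intercalated cells, and Atp6v1b2, Atp6v0a1, Atp6v1c1, Atp6v1g1 and Atp6v0d1 are their ubiquitous counterparts. The rule names the genes and uses no measured value. All 10 were listed among the 5035 genes of the dDAVP expression table and the 55416 genes of the β-catenin table. In the chromatin accessibility table, 194 of 270806 peaks were named with one of them by the authors.

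In the first RNA comparison, wild-type C57BL/6 mice received saline or dDAVP, an agonist of the V2 vasopressin receptor, for 5 days (4 libraries each), and ATAC-seq of the same 2 conditions had 3 libraries each. The second RNA comparison set 4 wild-type units (WT) against 4 units (MT) with a mutation of serine 552 of β-catenin, a target site of protein kinase A, with 3 libraries per unit, 24 in all. The sample labels give dDAVP and C57BL/6 for all 24 libraries, whereas the name of their table says that no vasopressin was given, so WT and MT were compared within that table only. The title of dDAVP library 4 carries 2 different numbers, and the library was kept in the dDAVP group. The labels do not say that each library or unit came from a separate animal, so p-values measure the spread between these samples, which may be technical.

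The V-ATPase is a rotary machine. Its cytosolic V1 part hydrolyses ATP in a ring of A and B subunits, its membrane-embedded V0 part carries protons, and stalks built from subunits such as C, G and d join the parts. Every cell uses it to acidify lysosomes and endosomes, whereas intercalated cells of the collecting duct also place it in the plasma membrane, where it secretes acid or takes part in bicarbonate secretion. Mutations of the human counterparts of Atp6v1b1 and Atp6v0a4 cause distal renal tubular acidosis.

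Promoter windows in the RefSeq table (GRCm38.p6, 250 bases before and 50 after a transcript start) were matched by symbol for 6 of the 10 genes: Atp6v1b1, Atp6v0a4, Atp6v1c2, Atp6v1g3, Atp6v0a1 and Atp6v0d1. Atp6v0d2, Atp6v1b2, Atp6v1c1 and Atp6v1g1 had no entry. Of these windows, 3 are shown because a deposited ATAC peak covers the start and the peak was called lower with dDAVP, as given further on. The strings run 5′ to 3′ on the gene's strand. They end at the base before the start, except for Atp6v0d1, which runs 10 bases past it. Atp6v1b1 lies at chr6:83742767-83743016 (plus strand), and its capitals mark TGTTTAC, the core bound by forkhead factors. Atp6v1g3 lies at chr1:138273488-138273737 (plus strand) and has no capitals. Atp6v0d1 lies at chr8:105566055-105566314 (minus strand), and its capitals mark TCACGTGA, the core of the CLEAR element that TFEB and TFE3, regulators of lysosomal genes, recognise.
Atp6v1b1: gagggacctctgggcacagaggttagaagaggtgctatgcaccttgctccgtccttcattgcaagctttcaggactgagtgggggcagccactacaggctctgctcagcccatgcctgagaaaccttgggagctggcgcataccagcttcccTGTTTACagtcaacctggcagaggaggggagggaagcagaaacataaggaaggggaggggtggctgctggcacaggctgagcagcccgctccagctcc
Atp6v1g3: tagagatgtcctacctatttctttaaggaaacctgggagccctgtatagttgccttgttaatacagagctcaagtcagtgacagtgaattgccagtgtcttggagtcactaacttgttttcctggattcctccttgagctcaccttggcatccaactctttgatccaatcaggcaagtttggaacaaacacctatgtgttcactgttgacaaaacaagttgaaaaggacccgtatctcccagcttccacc
Atp6v0d1: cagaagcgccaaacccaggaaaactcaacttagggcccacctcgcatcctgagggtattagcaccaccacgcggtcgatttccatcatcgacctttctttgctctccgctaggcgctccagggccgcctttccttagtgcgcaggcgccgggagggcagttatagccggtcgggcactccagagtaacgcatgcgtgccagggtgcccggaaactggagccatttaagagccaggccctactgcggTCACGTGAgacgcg

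Foxi1 is the forkhead factor that specifies intercalated cells, and the forkhead core TGTTTAC was searched on both strands. Atp6v1b1 held the only match among the 6 windows, with its first base 98 bases before the start. Among all 32851 windows 3.65% held one. The E-box CACGTG was in 7.15% of all windows and the CLEAR core TCACGTGA, which contains it, in 0.974%. Atp6v0d1 was the only one of the 6 with either, with the CLEAR core beginning 4 bases before its start. Of the 13 other V-ATPase subunit genes with a window, Atp6v1a and Atp6v0e also held the CLEAR core. The cAMP response element TGACGTCA was in 1.79% of all windows and in none of the 6. A match describes these letters only.

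The windows also differed in base composition. The median window of all genes had 52.67% G and C and 7 CpG dinucleotides. CpG numbered 3 in Atp6v1b1, 1 in Atp6v0a4 and 2 in Atp6v1g3, but 22 in the intercalated-enriched Atp6v1c2. Among the ubiquitous isoforms it numbered 26 in Atp6v0d1 and 7 in Atp6v0a1. The windows of Atp6v1c2 and Atp6v0a1 belong to starts inside the outermost gene bounds.

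Levels are given as TPM, a relative transcript abundance that the authors scaled by transcript length, so that genes can be set side by side. Intercalated-enriched isoforms were the more abundant member of each pair in nearly all libraries. In the saline libraries the highest mean was that of Atp6v1g3, a stalk subunit, at 785 ± 144 TPM (SD, n = 4). Atp6v1b1, the B subunit of the ATP-hydrolysing ring, followed at 645 ± 155, and the ranges of these neighbours overlapped. Atp6v0d2, the V0 subunit that links rotor and stalk, had 402 ± 94.6, and Atp6v1c2, the C subunit, 304 ± 31.6. The proton-translocating a subunit was the least abundant on both sides of its pair, with 124 ± 39.3 TPM for Atp6v0a4 and 39.4 ± 23.0 for Atp6v0a1. Of the other ubiquitous isoforms, Atp6v1g1 had 271 ± 29.7, Atp6v0d1 265 ± 58.4, Atp6v1b2 209 ± 24.7 and Atp6v1c1 124 ± 10.4 TPM, and neighbouring ranges overlapped from Atp6v0d2 down to Atp6v1b2.

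The WT units of the β-catenin table gave a like order, although levels are not tested across tables that may have been made separately. Atp6v1g3 again led with 643 ± 57.0 TPM (SD over 4 units of 3 libraries). Atp6v1b1 at 566 ± 192, Atp6v1c2 at 557 ± 56.7 and Atp6v0d2 at 499.9 ± 44.4 followed with overlapping ranges. Atp6v0d1 came next at 238 ± 39.5, and Atp6v0a1 was last at 36.9 ± 2.45. Atp6v1c2 held rank 3 here and rank 4 in the saline libraries.

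Within a pair, the ratio of the intercalated-enriched to the ubiquitous isoform was above 1 in all 24 libraries of the β-catenin table for all 5 pairs. In the dDAVP table the single exception was the d pair in 1 dDAVP library, at 0.929. The C pair stood furthest apart in the WT libraries, with Atp6v1c2 at 4.63 to 7.15 times Atp6v1c1 (median 5.89). The d pair stood closest, with Atp6v0d2 at 1.25 to 3.47 times Atp6v0d1 (median 2.09). The B, a and G pairs had medians of 3.07, 3.73 and 3.67.

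dDAVP against saline asked how sustained V2 receptor stimulation alters the duct. All 10 isoforms had a lower fitted level with dDAVP, but none passed the test. The intercalated-enriched isoforms were lower by 0.53 to 0.93 on the log2 scale, and of the ubiquitous ones Atp6v1b2 and Atp6v0a1 were lower by amounts of the same size, with Atp6v1c1, Atp6v1g1 and Atp6v0d1 closer to 0. The summed level of the 5 intercalated-enriched isoforms was 2034 to 2625 TPM in the saline libraries and 1197 to 1641 with dDAVP. That of the 5 ubiquitous isoforms was 793 to 1012 and 717 to 734. In bulk samples, fewer cells of a type and less RNA per cell cannot be told apart.

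The test was limma on log2(TPM + 1) over all 5035 genes, and a gene was called at an adjusted p (Benjamini-Hochberg) under 0.05. It called 35 genes, or 0.695%, and 0 of the 10 isoforms, whose adjusted p ran from 0.106 to 0.748. The authors' deposited table carries adjusted p from DESeq, which called 52 of the 5011 genes with a value, or 1.04%, and also 0 of the 10. Unadjusted p was under 0.05 in the lower direction for 6 of the 10, namely all 5 intercalated-enriched isoforms and Atp6v1b2, against 6.81% of all genes. In 3 of the 10 every dDAVP library lay below every saline library, against 5.02% of all genes. The median log2 fold change was -0.59 over the 10 isoforms, -0.66 over the intercalated-enriched and -0.26 over the ubiquitous ones, against -0.06 over all genes.

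**Figure D1:**
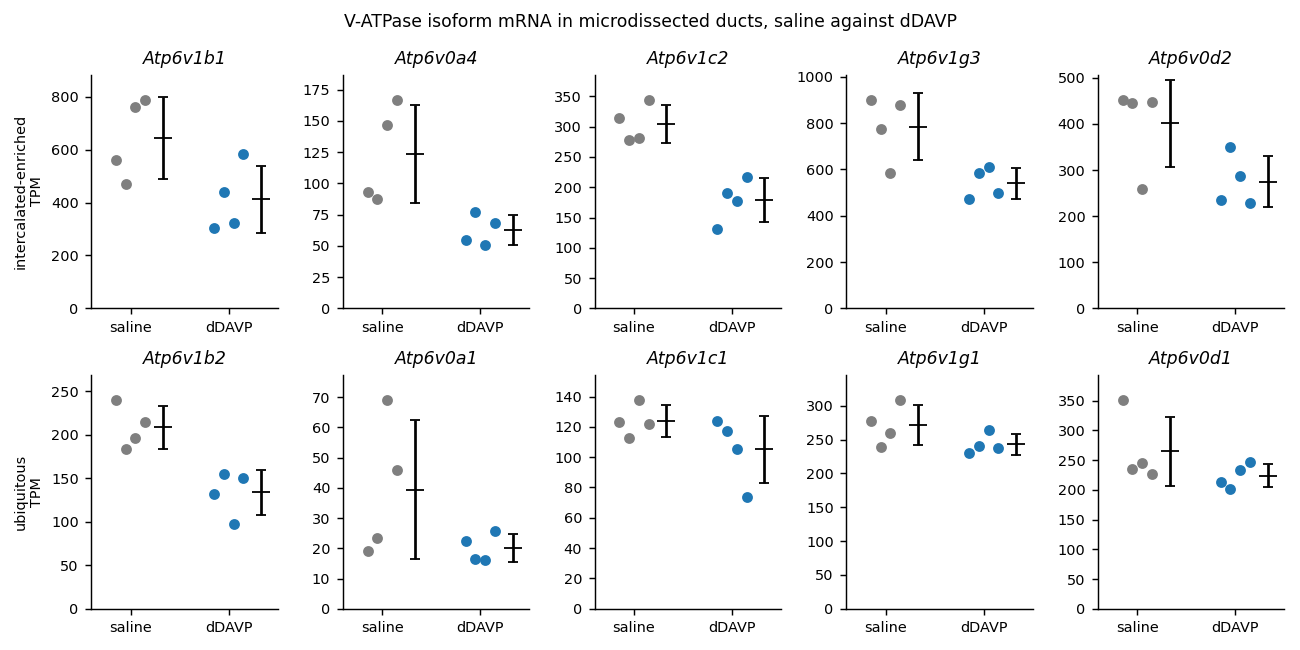
TPM of each isoform (vertical axis, from 0) in the 4 saline (grey) and 4 dDAVP (blue) libraries, 1 point a library in label order, with the group mean and SD in black. The groups separate without overlap for Atp6v0a4, Atp6v1c2 and Atp6v1b2, and overlap for the other 7.

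Atp6v1c2, the C subunit found on the V1 stalk, had the smallest p. It was listed at 314, 278, 281 and 345 TPM in the saline libraries and at 131, 190.5, 177 and 218 with dDAVP. The groups did not overlap. The level with dDAVP was 0.582 times that of saline, with a 95% interval of 0.438 to 0.773 (log2 fold change -0.78, SE 0.19, limma p 0.00143, adjusted p 0.106). Leaving out saline libraries 3 and 4 gave -0.74.

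Atp6v0a4, the a subunit through which protons cross the membrane of intercalated cells, had the largest fitted difference. The saline libraries held 93.5, 87.4, 147 and 167 TPM and the dDAVP libraries 54.5, 76.9, 50.8 and 68.8. The groups did not overlap, but saline libraries 3 and 4 stood well above 1 and 2. The level with dDAVP was 0.524 times that of saline, with an interval of 0.348 to 0.789 (adjusted p 0.21). Without saline libraries 3 and 4 the log2 fold change moved from -0.93 to -0.54.

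Atp6v1b1, the B subunit mutated in distal renal tubular acidosis, showed the same split among the saline libraries. Its levels were 559, 470.2, 761 and 788 TPM with saline and 305, 439, 324 and 581 with dDAVP. The highest dDAVP library lay above the 2 lowest saline libraries, so the groups overlapped. The fold was 0.633 (interval 0.441 to 0.908, adjusted p 0.326), and the log2 fold change moved from -0.66 to -0.36 without saline libraries 3 and 4.

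These libraries stand apart in the table as a whole, with mean correlations to the other libraries of 0.85 and 0.826 against 0.891 to 0.922 in the rest. The check without both was added after the data were seen. Members differed in which way it moved them: Atp6v1g3 and Atp6v0d2 went further from 0, to -0.64 and -0.73, and Atp6v0a1 went to -0.10. No isoform passed the threshold in it.

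Atp6v1g3, the G subunit of the peripheral stalk, was listed at 902, 775, 586 and 877 TPM with saline and at 471, 585, 609.96 and 497 with dDAVP. Atp6v0d2 stood at 453, 446, 259.7 and 447 TPM with saline and at 235, 349, 288 and 229 with dDAVP. In both genes saline library 3 was the low one and was the only saline library inside the dDAVP range. The folds were 0.695 (interval 0.536 to 0.901, adjusted p 0.263) and 0.694 (interval 0.497 to 0.968, adjusted p 0.405).

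Among the ubiquitous isoforms, Atp6v1b2, the B subunit of lysosomal pumps, was the one with separate groups. Its saline libraries held 240.1, 183, 196 and 215 TPM and its dDAVP libraries 132, 155, 98.0 and 151. The fold was 0.637 (interval 0.473 to 0.858, adjusted p 0.227). Atp6v0a1 had a wide spread in saline, at 19.25, 23.35, 69.1 and 45.8 TPM, against 22.5, 16.4, 16.0 and 25.6 with dDAVP. The 95% interval of its fold, 0.321 to 1.05, included 1, and the high values were those of saline libraries 3 and 4.

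The remaining ubiquitous isoforms differed less. Atp6v1c1 ranged from 113 to 138 TPM with saline and from 73.9 to 124 with dDAVP (fold 0.838, interval 0.607 to 1.16). Atp6v1g1 ranged from 238 to 309 and from 229.5 to 264 (fold 0.898, interval 0.714 to 1.13). Atp6v0d1 ranged from 226 to 351 and from 202 to 246 (fold 0.859, interval 0.653 to 1.13). The 3 intervals include 1, and that of Atp6v1c1 also includes the fold fitted for Atp6v1b1, so a response of that size is not shown to be lacking there. Single libraries moved these small values: without dDAVP library 4 the log2 fold change of Atp6v1c1 went from -0.26 to -0.10, without saline library 4 that of Atp6v1g1 from -0.16 to -0.09, and without saline library 1 that of Atp6v0d1 from -0.22 to -0.08. That of Atp6v0a1 went from -0.78 to -0.46 without saline library 3.

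The ratio within a pair describes whether one isoform changed more than the other. The B pair had nearly the same mean log2 ratio in both groups, 1.60 ± 0.37 with saline and 1.59 ± 0.31 with dDAVP (SD, n = 4). The C pair had 1.29 ± 0.20 and 0.76 ± 0.60, and the G pair 1.52 ± 0.25 and 1.15 ± 0.12. The a pair had 1.75 ± 0.48 and 1.60 ± 0.41, and the d pair 0.59 ± 0.44 and 0.28 ± 0.38. All 5 mean ratios were lower with dDAVP, and all 5 overlapped between the groups.

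The remaining subunit genes of the pump, further a and G isoforms among them, were also mostly below 0. Of 16 genes, 13 were listed, 0 passed the threshold in either direction and 12 had a fitted value below 0, with a median of -0.30, against 56.39% of all genes below 0. The 4 smallest p belonged to Atp6v1a, Atp6v1d, Atp6v1h and Atp6v1f. Atp6v1a, the catalytic A subunit shared by all V-ATPases, had 644 ± 106 TPM with saline and 437 ± 60.5 with dDAVP (SD, n = 4, adjusted p 0.227 in limma). Atp6v1d, the central rotor shaft, had a log2 fold change of -0.40, Atp6v1h, a regulatory V1 subunit, one of -0.36, and Atp6v1f one of -0.30, with adjusted p of 0.364 to 0.487 in limma. The 1 gene above 0 was Atp6v0a2, another a subunit isoform, at 0.07.

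Assembly factors and regulators likewise had 0 of 10 listed genes past the threshold, and 7 of them were below 0 with a median of -0.16, a share nearer to that of all genes. Tldc2, which carries the TLDc domain of V-ATPase-binding proteins, had 455 ± 168 TPM with saline and 218 ± 42.4 with dDAVP (SD, n = 4, interval of the log2 fold change -1.57 to -0.44, adjusted p 0.137 in limma). Tfeb, a regulator of lysosomal genes, had -0.58, Foxi1 -0.38, and Rogdi, a subunit of the RAVE assembly complex, -0.29, with adjusted p of 0.511 to 0.652 in limma.

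Markers of the cells that hold the pump were mostly below 0 as well, with a large exception. In the intercalated cell list without pump genes, 13 of 16 listed genes were below 0, 9 of them at unadjusted p under 0.05 in limma (against 56.39% of all genes below 0 and 6.81% lower at that p), and the 16 included 1 called lower and 1 called higher. Car12, a carbonic anhydrase, fell from 1057 ± 240 to 523 ± 94.2 TPM (SD, n = 4, adjusted p 0.0378 in limma), and Car15, another one, rose from 1553 ± 207 to 7701 ± 1174 (SD, n = 4, adjusted p 4.82e-05 in limma). The list's summed level was 10254 to 13054 TPM with saline and 12888 to 16659.5 with dDAVP. Without Car15, left out after its value was seen, it was 8823 to 11457 and 6195 to 7797, so the direction of the sum turns on that gene. Slc26a4, the pendrin exchanger of type B intercalated cells, had 907 ± 191 and 488 ± 113 TPM (adjusted p 0.106 in limma), and Slc4a1, the exchanger of type A cells, 284 ± 52.5 and 271 ± 39.7 (adjusted p 0.930). Aqp2, the water channel of principal cells, rose from 20171 to 60871 TPM (adjusted p 0.0028 in limma). Of the 11 listed principal cell markers 2 were called higher and 0 lower, against 0.695% of all genes called. Groups did not overlap for 4 that were higher and for 1, Scnn1b, that was lower (log2 fold change -0.51). Hsd11b2, Scnn1g and Gata3 had -0.002, 0.02 and 0.09. The part of these markers in the isoforms' values was not tested.

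Proximal tubule markers, of which 3 of 8 were listed, summed to 404 to 7691 TPM in saline and 1000 to 9891 in dDAVP libraries. Of 6 thick limb and distal convoluted tubule markers 2 were listed, Calb1 and Umod. They summed to 482 to 1426 TPM with saline and 367 to 5556 with dDAVP, the highest in dDAVP library 1. Calb1 ranged from 397 to 694 and from 284 to 480 TPM, and Umod from 84.1 to 825 and from 21.0 to 5253. Transcripts on these lists thus varied between libraries in both groups, and what share came from neighbouring segments was not tested. The osteoclast markers, which matter because bone also uses Atp6v0d2, were not listed in this table and summed to 5.57 to 13.2 TPM over the WT units of the other.

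**Figure D2:**
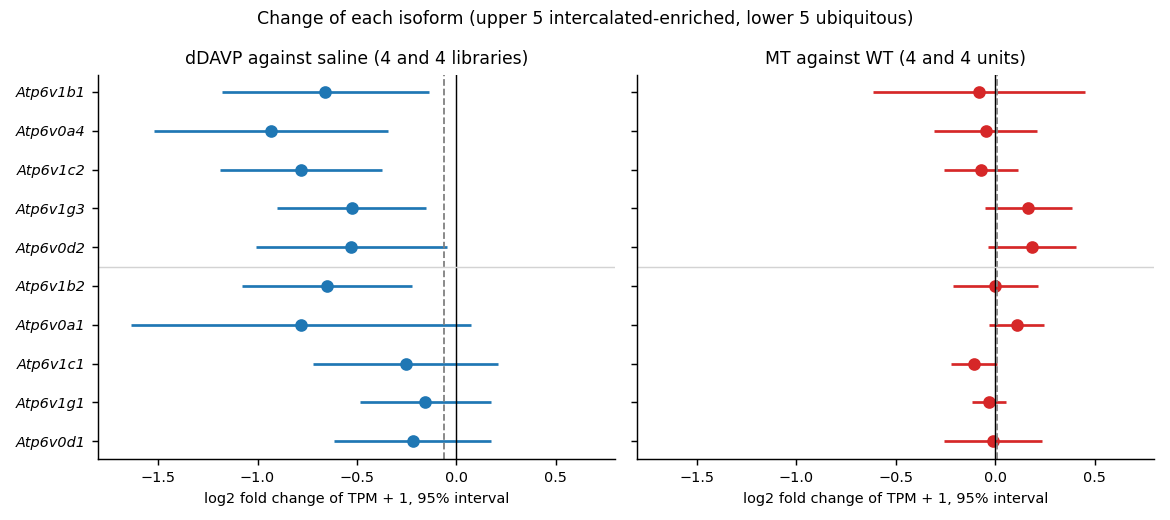
Log2 fold change of TPM + 1 with its 95% interval (horizontal axis) for each isoform, dDAVP against saline on the left and MT against WT on the right; the dashed line is the median of all genes. On the left 6 intervals lie wholly below 0, while on the right all 10 include 0.

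The comparison of MT with WT addressed the kinase target site of β-catenin. No isoform passed the test, and for all but Atp6v1b1 the intervals were narrower than for dDAVP. The fitted log2 fold changes ran from -0.11 for Atp6v1c1 to 0.18 for Atp6v0d2. In limma over 15013 genes with a mean of at least 1 TPM, with the 3 libraries of a unit averaged, 0 of the 10 isoforms and 0 genes in all passed an adjusted p of 0.05, a share of 0%. At unadjusted p under 0.05 there were 0 of the 10, against 4.55% of all genes. Groups that did not overlap numbered 0 of the 10, against 3.02% of all genes.

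Precision here bounds the difference between these units, which are not shown to be separate animals. For Atp6v1g1 the 95% interval of the fold was 0.921 to 1.04, for Atp6v1c1 0.856 to 1.01 and for Atp6v0a1 0.979 to 1.19. Atp6v1c2 had 0.836 to 1.08 and Atp6v0a4 0.809 to 1.16. The intercalated-enriched Atp6v1g3 and Atp6v0d2 were on the higher side, at 0.963 to 1.31 and 0.974 to 1.32. Atp6v1b1 was the least precise, with 0.653 to 1.37.

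By unit, Atp6v0d2 averaged 537, 448, 536 and 478 TPM in WT and 485, 554, 598 and 641 in MT. Atp6v1g3 averaged 703, 565, 651 and 651 in WT and 608, 763, 794 and 724 in MT. Units MT2, MT3 and MT4 lay above every WT unit in both genes, whereas MT1 lay inside the WT range. Neither passed the test (adjusted p 0.969 for both in limma).

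The pair ratios differed little between genotypes. The largest difference in mean log2 ratio, MT minus WT, was 0.20 in the G pair, from 1.83 ± 0.15 to 2.03 ± 0.18 (SD, n = 4 units). The d pair went from 1.08 ± 0.32 to 1.27 ± 0.16 and the a pair from 1.94 ± 0.31 to 1.78 ± 0.10. All 5 ratios overlapped. Other subunits (15 of 16 tested, 0 called) had a median log2 fold change of 0.001, with the 4 smallest p at Atp6v1g2 (0.27), Atp6v1d (0.20), Atp6ap2 (0.18) and Atp6v0a2 (-0.05), and assembly and regulation genes (17 of 17) one of 0.07, against 0.009 over all genes. Of the latter list Mitf (groups not overlapping), Vma21 and Meak7 had unadjusted p under 0.05, with log2 fold changes of 0.19, 0.20 and 0.18 and adjusted p of 0.969 in limma. These were 3 of 17 genes, against 4.55% of all genes at that p, and 1 of 17 without overlap, against 3.02%.

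The 24 libraries of this table show how the isoforms varied among ducts of like treatment. Atp6v1b1 varied most, from 349 to 1179.8 with a median of 465 TPM, a 3.38-fold span. Atp6v1g3 spanned 2.12-fold, Atp6v0a4 1.92-fold and Atp6v0d1 1.90-fold. Atp6v0d2 spanned 1.74-fold and Atp6v1c2 1.61-fold. The other ubiquitous isoforms were the steadiest, at 1.51-fold for Atp6v1b2, 1.33-fold for Atp6v0a1, 1.28-fold for Atp6v1c1 and 1.23-fold for Atp6v1g1.

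Much of the spread of Atp6v1b1 lay in 3 libraries. Its WT1 libraries held 946, 613 and 568 TPM, its WT3 libraries 1179.8, 410.2 and 668, and its MT1 libraries 826, 550.4 and 463. The other 15 libraries lay between 349 and 668 TPM. Atp6v0a4 showed the same libraries, with 203, 148 and 159.8 TPM in WT1, 222, 118 and 157 in WT3 and 174, 133 and 129 in MT1. In WT3 the same libraries held 615, 648 and 692 TPM of Atp6v1g3 and 497, 514 and 598 of Atp6v0d2, so the library highest in Atp6v1b1 was the lowest of its unit in both. Proximal tubule markers in the 3 high libraries summed to 233, 5109 and 12.2 TPM, against 12.2 to 5109 over all 24. Thick limb and distal markers summed to 3313, 423 and 362, against 107 to 3313, and immune markers to 793, 418.5 and 638, against 43.4 to 837. The first library of WT3 was thus the highest of the 24 in proximal markers, with 1231 TPM in the next, and that of WT1 the highest in thick limb and distal markers. The part of these cells in the isoforms' values was not tested.

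**Figure D3:**
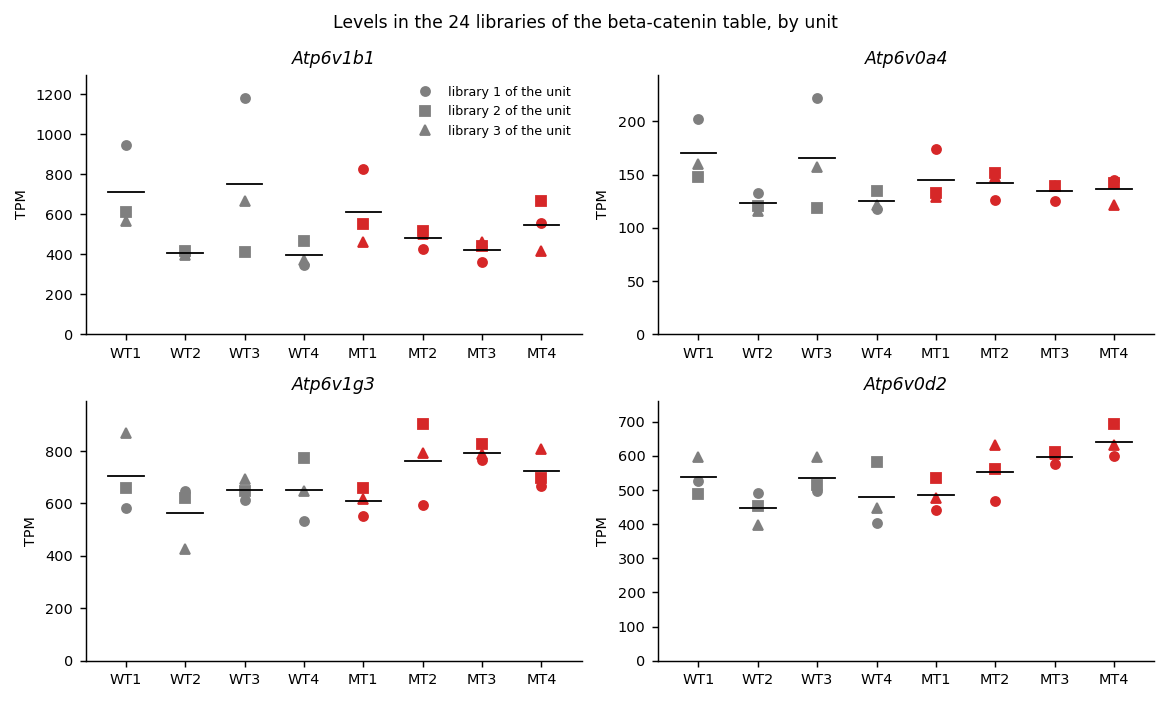
TPM (vertical axis, from 0) of 4 intercalated-enriched isoforms in each of the 24 libraries, by unit (horizontal axis; WT grey, MT red), with marker shape for the library within its unit and a bar for the unit mean. The first libraries of WT1, WT3 and MT1 stand high in Atp6v1b1 and Atp6v0a4 but not in Atp6v1g3 or Atp6v0d2.

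Co-variation between libraries is given as a description, on log2(TPM + 1), with r being Pearson's coefficient. Libraries of a unit share their source, so the 24 points are not independent. The intercalated-enriched isoforms did not all move together. Atp6v1b1 and Atp6v0a4 had r = 0.941 over the 24 libraries (Spearman's rho 0.902), and 0.872 without the 2 libraries farthest from the median of Atp6v1b1. Atp6v1g3 and Atp6v0d2 had r = 0.808, and Atp6v1c2 had 0.618 and 0.649 with them. Atp6v1b1 had -0.064 with Atp6v1g3, 0.164 with Atp6v0d2 and 0.357 with Atp6v1c2. Over the means of the 8 units, r was 0.939 for Atp6v1b1 with Atp6v0a4, 0.846 for Atp6v1g3 with Atp6v0d2 and -0.016 for Atp6v1b1 with Atp6v1g3, but Atp6v1c2 had 0.656 with Atp6v1b1 and 0.353 with Atp6v1g3.

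The 8 libraries of the dDAVP table are other samples, and after each group's mean was removed they gave 0.844 for Atp6v1b1 with Atp6v0a4 and 0.908 for Atp6v1g3 with Atp6v0d2. Atp6v1b1 had -0.205 with Atp6v1g3 and -0.298 with Atp6v0d2. Atp6v1c2 had 0.725 with Atp6v1b1 and 0.436 with Atp6v1g3, the same order as over the units.

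Landmark genes of the duct's cell types are set beside these. Over the 24 libraries Slc26a4 had r = 0.875 with Atp6v1c2, 0.8 with the ubiquitous Atp6v1b2, 0.735 with Atp6v1g3 and 0.73 with Atp6v0d2, but 0.254 with Atp6v1b1 and 0.269 with Atp6v0a4. Over the 8 units that contrast was not seen for Atp6v1g3 and Atp6v0d2, at 0.554 and 0.654 against 0.56 for Atp6v1b1 and 0.62 for Atp6v0a4, while Atp6v1c2 had 0.883 and Atp6v1b2 0.93. Over the 24 libraries Slc4a1 was negative with all of these, down to -0.81 for Atp6v1b2. Foxi1 had its highest r with Atp6v1g3, at 0.538, and had -0.242 with Atp6v1b1. Aqp2, of principal cells, was negative with all 5 intercalated-enriched isoforms, from -0.167 for Atp6v1b1 to -0.703 for Atp6v1g3. Of the ubiquitous isoforms, Aqp2 was also negative with Atp6v1b2 (-0.63), Atp6v1c1 (-0.373) and Atp6v0a1 (-0.223), and positive with Atp6v0d1 (0.584) and Atp6v1g1 (0.171). The summed intercalated cell markers without Car15 had r of 0.746 to 0.814 with Atp6v1c2, Atp6v1g3 and Atp6v0d2, but -0.005 with Atp6v1b1 and -0.002 with Atp6v0a4. With that sum the ubiquitous Atp6v1b2 had 0.626, and the other ubiquitous isoforms -0.382 to 0.322. The summed stroma markers, of which 1 of 4, Dcn, passed the filter, were at 21.1 to 102 TPM. Their r was 0.717 to 0.76 with the same 3 intercalated-enriched isoforms and 0.084 with Atp6v1b1. With the stroma sum Atp6v1b2 had 0.694, and the other ubiquitous isoforms -0.443 to 0.49. The part of these cells was not tested. Proximal tubule markers had r of 0.602 with Atp6v1b2 and 0.082 with Atp6v1b1. In the 8 libraries of the dDAVP table Atp6v1b2 and Slc26a4 had r = 0.682 (Spearman's rho 0.69), and -0.054 after each group's mean was removed. There Slc4a1 was not negative with all of the isoforms given above for Slc26a4. Its r ran from -0.068 for Atp6v1b1 to 0.533 for Atp6v0d2. After each group's mean was removed it ran from -0.324 for Atp6v1b2 to 0.595 for Atp6v0d2.

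**Figure D4:**
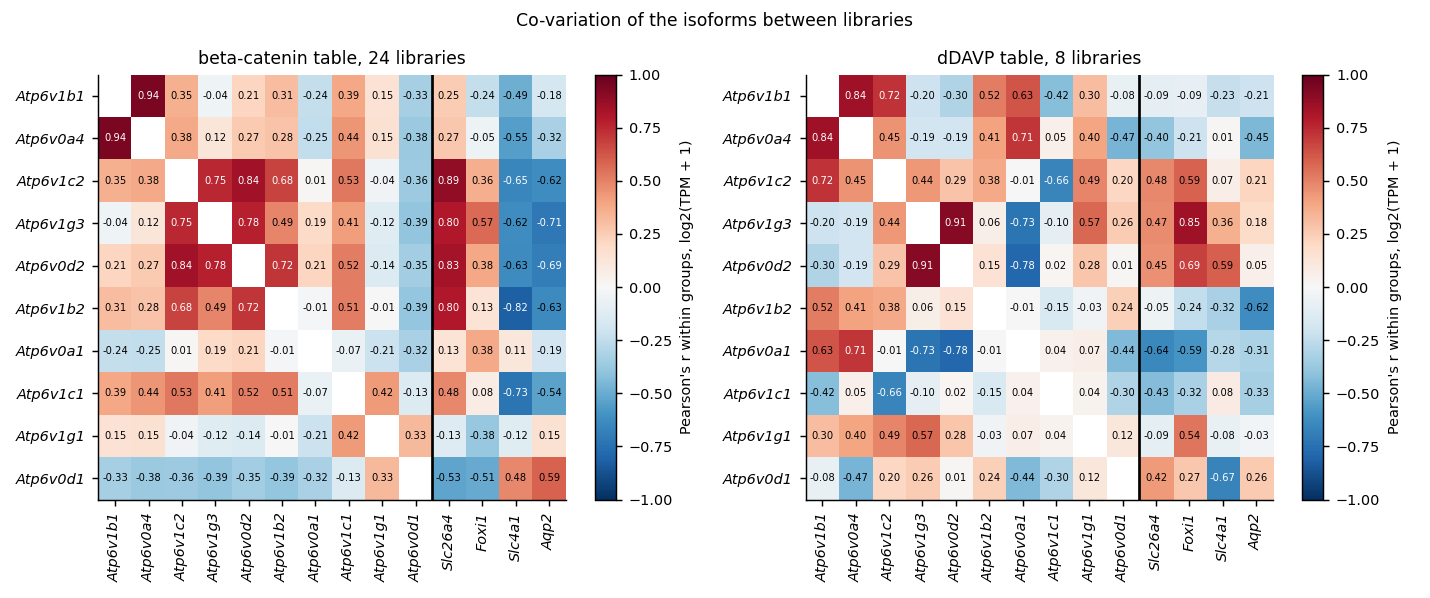
Pearson's r of log2(TPM + 1) after removing each group's mean (color and printed value), between the isoforms (rows) and the isoforms and 4 landmark genes (columns), in 24 and in 8 libraries. Atp6v1b1 pairs with Atp6v0a4 at 0.941 and 0.844, and Atp6v1g3 with Atp6v0d2 at 0.775 and 0.908, in the left and right panel.

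The genes most like Atp6v1b1, among 8841 others with a mean of at least 10 TPM, included Atp6v0a4, then Alcam (r = 0.918), Stk11 (0.878), Swsap1 (0.835), Emd, Tmem242 and Agpat1 (0.812). Alcam is a cell adhesion molecule. For Atp6v1b2 they were Adhfe1 (0.914), Entpd5, Nfs1, Uqcrc1, Gcdh, Smim24, Sephs2 and Idh3g (0.875); Uqcrc1 belongs to the respiratory chain and Idh3g to the citric acid cycle. In the dDAVP table, over 8 libraries and 5034 other genes, the lists were different in every name. They were Nmrk1 (0.98), Ppa2, Tubg1, Vegfb, Itgb3bp, Mrpl10, Tnfaip8 and Dazap1 (0.926) for Atp6v1b1, with Atp6v0a4 at rank 11. For Atp6v1b2 they were Card19 (0.963), Mgrn1, Fam102a, Suclg2, Ngef, Lonp1, Sirt3 and Eps8 (0.913).

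Accessibility of the isoform genes was lower with dDAVP in every peak that the authors called, and this was the direction of strong peaks across the genome. The table gives, per peak, log2 mean normalised reads of each group and the authors' log2 fold, p and adjusted p, but no library values, so no spread can be shown. Of the 194 peaks, 16 were called lower at an adjusted p under 0.05 and 0 higher, against 5.98% lower and 0.846% higher among all peaks. Calls depended on signal. Of the 14 peaks with a mean log2 signal of 7 or more, 9 were called lower, against 53.4% of all such peaks, and of the 15 annotated as promoter-TSS 2 were, against 25.8%. The median log2 fold of the 14 strong peaks was -0.50, that of all strong peaks -0.49. The share among the strong peaks was thus near the background. The other 180 peaks had a median log2 fold of -0.38, with 72.8% below 0. All peaks under a signal of 7 had -0.12 and 56.0%. Of the 180, 7 were called lower, or 3.89%, against 2.62% of all such peaks. The cause of this difference was not tested.

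Peaks that cover the outermost annotated start were found for 9 of the 10 genes. Positions are on mm10, the build of the files, with gene bounds from RefSeq's GRCm38.p6. Called lower were those of Atp6v1b1, Atp6v1g3, Atp6v0d2, Atp6v1c1, Atp6v1g1 and Atp6v0d1. Those of Atp6v0a4, Atp6v0a1 and Atp6v1b2 were not called, and for Atp6v1c2 a peak at chr12:17324605-17325069 covered the start that its RefSeq promoter window is drawn around, but not the outermost one (6.64 to 5.99, log2 fold -0.53, adjusted p 0.088, not called). The authors' log2 folds of all 9 lay between -0.60 (Atp6v1c1) and -0.37 (Atp6v0a4), intercalated-enriched and ubiquitous isoforms alike. Mean log2 signals of the 9 ran from 6.82 (Atp6v1g3) to 9.18 (Atp6v0d1), and all but the lowest were above 7. Among all peaks with a mean log2 signal of 7 or more, 53.4% were called lower.

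Atp6v1b1 had its start peak at chr6:83742753-83743207, which holds the whole sequence printed above with its forkhead core. The signal there, in log2, fell from 8.52 in saline to 7.86 (the authors' log2 fold -0.55, adjusted p 0.0235). A larger peak in an intron at chr6:83743487-83745042 went from 9.92 to 9.40 (log2 fold -0.40, adjusted p 0.00349) and was the strongest of all 194. For these 2 peaks the authors' folds are smaller than the differences of the group values. For a rising peak at chr6:83730029-83730401 (3.54 to 3.85, not called) the fold of 0.42 is larger than the difference. How the folds were made is not given in the sources used here. Of the 12 peaks named with Atp6v1b1, 2 were called.

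Atp6v0a4 had a start peak at chr6:38124252-38124888, at 8.12 and 7.63 (adjusted p 0.206), and its called peak lay in an intron at chr6:38120709-38121415, at 8.98 and 8.37 (log2 fold -0.50, adjusted p 0.0202). Atp6v1g3, with 57 named peaks, had called peaks over its start at chr1:138273493-138274301 (7.12 to 6.43, adjusted p 0.0406) and in an intron at chr1:138275845-138276305 (6.55 to 5.82, adjusted p 0.0415). The first covers 245 of the 250 bases printed for this gene. Atp6v0d2 had its start peak at chr4:19922377-19922973 (7.33 to 6.65, adjusted p 0.0461), and an intergenic one upstream at chr4:19926111-19926366 went from 4.95 to 3.52 (log2 fold -1.31, adjusted p 0.0265). Atp6v1c2 had 1 called peak, intronic, at chr12:17321281-17321786 (7.12 to 6.36, adjusted p 0.0211).

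Among the ubiquitous isoforms Atp6v0d1 had the most calls, with 6 of its 14 peaks lower, against 5.98% of all peaks. Of its 3 peaks with a mean log2 signal of 7 or more, 3 were called, against 53.4% of all such peaks. Its start peak at chr8:105565225-105566698, which holds the printed window with its CLEAR core, went from 9.44 to 8.88 (adjusted p 0.013) and is annotated as the transcript end of the neighbour Agrp. Others lay in its introns, among them chr8:105544474-105545484 (8.30 to 7.40, log2 fold -0.79, adjusted p 0.00137) and chr8:105552798-105553163 (5.15 to 3.58, log2 fold -1.44, adjusted p 0.00878). The start peak of Atp6v1c1 at chr15:38661469-38662869 went from 8.66 to 7.95 (adjusted p 0.00942), and that of Atp6v1g1 at chr4:63544151-63545868 from 9.09 to 8.45 (adjusted p 0.0102). Atp6v0a1 had 0 of 10 and Atp6v1b2 0 of 6 called. The start peak of Atp6v1b2, at chr8:69088516-69089533, carries the name of the neighbour Slc18a1 in the table (8.36 to 7.79, adjusted p 0.0838), so it is not among the 194.

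Names in that table do not follow the gene bounds. Of the peaks that overlap Atp6v0a4, 30 of 38 carry another gene's name, as do 12 of 25 over Atp6v0d1 and 8 of 12 over Atp6v0a1. Conversely, peaks named Atp6v1b1 include introns of Vax2. In RNA and accessibility together, Atp6v1b1, Atp6v1g3, Atp6v0d2, Atp6v1c1, Atp6v1g1 and Atp6v0d1 had called start peaks and no called RNA difference, and of the 3 genes with separate RNA groups Atp6v0a4 and Atp6v1c2 had 1 called peak each, in introns, and Atp6v1b2 had 0. The start peak calls stand beside a share of 53.4% called lower among all peaks with a mean log2 signal of 7 or more.

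**Figure D5:**
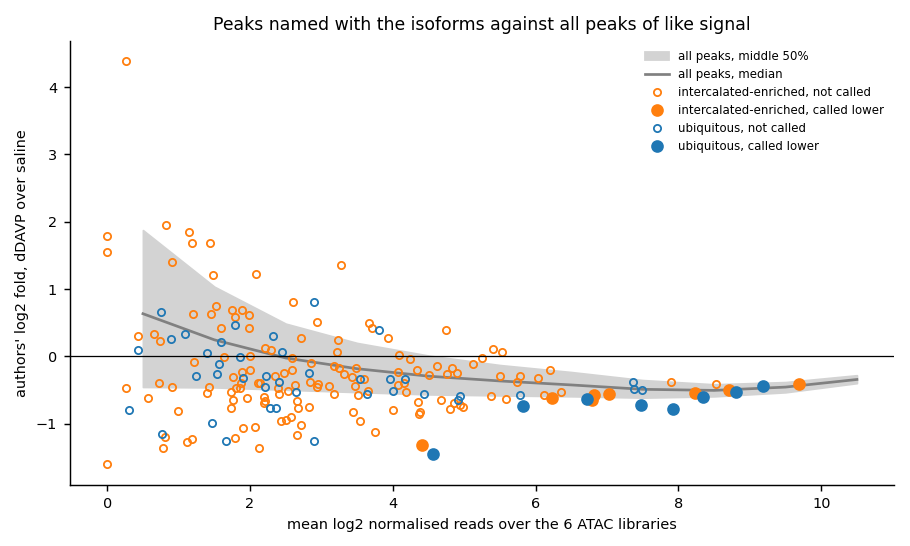
Authors' log2 fold, dDAVP over saline (vertical axis), against mean log2 normalised reads over the 6 libraries (horizontal axis) for the 194 peaks of intercalated-enriched (orange) and ubiquitous (blue) isoforms, called (filled) and not called (open), with the median and middle 50% of all peaks by signal in grey. The strong peaks of both isoform classes lie near the grey line, whose value is -0.49 for signals between 7 and 8.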

How the data were processed

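Cortical collecting ducts were profiled by RNA-seq and ATAC-seq. Per the submitters' processing notes, reads were processed with STAR, RSEM, cutadapt 3.4, FastQC, Bowtie2, SAMtools, bedtools and Picard on mm10, and DiffBind, deepTools and MACS2 are also named. Other versions and the role of each tool are not given in the sources used here. The deposited RNA values are TPM, which keep no read depth, so depth is unknown. Per the file headers, the dDAVP table lists only genes with a minimum TPM above 10. The log2 group values and log2 folds of ATAC peaks, and the p-values and adjusted p-values of both assays, are the authors' deposited values, used as given.

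From these, log2(TPM + 1) was fitted with limma 3.58.1 (eBayes with a trend; R 4.3.3; checked on simulated data) over all genes listed (dDAVP) or of mean TPM of at least 1 (β-catenin, units averaged over 3 libraries), with Benjamini-Hochberg adjustment at 0.05. Fold changes on this scale understate changes of low genes. Tables, correlations and plots used Python 3.11.15, numpy 2.4.6, pandas 2.3.3, scipy 1.17.1 and matplotlib 3.10.9.

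Named were all 10 isoforms, and of the other subunit and assembly lists the genes past the threshold or else the 4 of smallest p. Named too were 4 landmark genes, the 8 genes most correlated with Atp6v1b1 and with Atp6v1b2 (1 is not reported here), and peaks called, at promoters or over starts. The isoforms and lists were chosen with earlier results of these data known. Alternatives were other pseudocounts, scalings, filters, a replicate block and leaving out libraries.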

Additional observations from a re-analysis of the deposited data

Results flagged for a closer look

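Of 40 groups of 4 samples, 2 had a sample far from the others, and chance flags about 1 group in 20. Atp6v0d2 was listed at 259.67 TPM in saline library 3, against 446.12 to 452.89 in the other saline libraries. Without that library its log2 fold change with dDAVP was -0.72 (adjusted p 0.118 in limma). Atp6v0d1 was listed at 351.39 TPM in saline library 1, against 226.06 to 245.48 in the others. Without that library its log2 fold change was -0.08 (adjusted p 0.901 in limma).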

How the results depend on the processing

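With dDAVP, all 10 isoforms kept a value below 0 in the 150 combinations of isoform and alternative, and 0 passed the threshold in limma (lowest adjusted p 0.0922). The count of all genes called was 35, and it was 18 without limma's trend and 7 to 47 when 1 library was left out, the lowest without dDAVP library 3. With the replicate number as a block it was 8. Same-numbered libraries correlated at -0.149 to 0.23 after each group's mean was removed. The same number was the best match for replicates 1 and 2 but not for 3 and 4. With so few libraries this cannot show whether the numbers mark pairs. The block changed no isoform's call in either table.

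For MT against WT, 0 isoforms were called under every alternative, and 14 of 180 values changed sign. Of these, 4 were of Atp6v1b1, 4 of Atp6v1b2, 3 of Atp6v0a4 and 3 of Atp6v0d1. Genes called in all were 0, against 0 to 5 when 1 unit was left out and 1 with the 24 libraries and unit as a random effect. At unadjusted p under 0.05 there were 683. Leaving out 1 unit gave -0.2302 to 0.0774 for Atp6v1b1, -0.1241 to 0.0307 for Atp6v0a4, -0.0707 to 0.0685 for Atp6v1b2 and -0.0764 to 0.0873 for Atp6v0d1. Medians over a unit's libraries gave 0.0387 for Atp6v1b1 and 0.0179 for Atp6v0a4, and rescaling by median of ratios gave -0.0451 for Atp6v1b2. Of the 16 isoform peaks called, 5 passed an adjusted p of 0.01. No share over all peaks is given here for that threshold, so the count describes these peaks only. Of the 15 promoter-TSS peaks of the isoforms 2 were called lower at 0.05, or 13.3%, against 25.8% of all such peaks. The cause of these differences was not tested.

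TPM keep no depth, and the ATAC table holds no library values, and neither counting error nor the spread of a peak is given.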
